A study of Mus musculus with 6 samples.

Results

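Osteoblast lineage transcription factors are described here by 8 genes chosen by symbol: Runx2, Runx1, Sp7, Msx1, Msx2, Dlx5, Twist1 and Twist2. Each had 1 row among the 22030 genes of the count table. Of the 8, Runx2, Runx1, Msx1, Twist1 and Twist2 passed the filter on low counts, which kept 13067 genes, and Sp7, Msx2 and Dlx5 did not. Messenger RNA of mouse mesenchymal stem cells from bone marrow, the stromal progenitors of bone, fat and cartilage, was read in 6 sequencing libraries. The 3 control libraries are titled siNC with the genotype WT, and the other 3 are titled siRIOK3- with the genotype RIOK3 knockdown. The design text speaks of lentiviral lines and also of a knockout, so the agent is not settled by the labels, which also do not say whether a line is a single clone. The sources used here give no mouse strain, age, culture medium or time of harvest. Values listed for a group below are in the order of replicates 1, 2 and 3. No label states that a group's libraries came from separate cultures, and the p-values therefore reflect only the spread among these samples, which may be technical. The comparison bears on how RIOK3 acts on the osteogenic differentiation of these cells.

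RUNX2 is the runt-domain factor without which osteoblasts do not form, and it binds DNA as a dimer with the subunit encoded by Cbfb. SP7 (osterix), a zinc finger protein, acts after RUNX2 in committed osteoblast precursors. The homeodomain proteins MSX1, MSX2 and DLX5 are induced by bone morphogenetic proteins (BMPs), and DLX5 activates while MSX2 can repress promoters that both bind. TWIST1 and TWIST2 are basic helix-loop-helix proteins of early mesenchyme that can hold RUNX2 inactive. RUNX1 is best known from blood formation and is also present in skeletal progenitors.

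The libraries held between 28327612 and 32569544 counts. Riok3, the targeted kinase gene, had counts of 4266, 5365 and 4022 in the controls, against 1034, 1048 and 1155 in the knockdown, with no overlap and a log2 fold change of −2.23 (SE 0.178, edgeR quasi-likelihood test, adjusted p = 0.000127). After the correction for GC content described below it was −1.20 (adjusted p = 0.0105). Control replicate 2 stood apart, whose Spearman correlation was 0.963 with control replicate 1 and 0.968 with control replicate 3, while those 2 libraries reached 0.996. Results are therefore given with and without it where the call changes. Levels across libraries are TMM-scaled CPM, counts relative to library size,, fold changes are knockdown over control, and a gene was called at a Benjamini-Hochberg adjusted p under 0.05. Log2 CPM also followed the GC content of transcripts, with slopes of −0.794 to −0.450 per 10 points of GC in control and 0.564 to 0.662 in knockdown libraries, relative to the mean of all 6. Fold changes of the tested factors are therefore also given with each library's trend on GC content removed. Of all tested genes 48.0% were called, 21.1% as higher and 26.8% as lower in the knockdown. Higher calls made up 44% of all calls with TMM, 56.2% with upper-quartile factors and 60.3% with factors left at 1, and the corresponding median log2 fold changes over all genes were 0.0141, 0.205 and 0.263.

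The sequences before the start sites of Runx2, Runx1, Msx1 and Twist1 are shown because the RUNX pair is compared gene against gene, Msx1 was the member that passed the test, and Twist1 was the most abundant member per length. Each is the 250 bases before a start in RefSeq on GRCm38.p6, 5′ to 3′ on the gene's minus strand for Runx2, Runx1 and Msx1 and on the plus strand for Twist1. Such windows were found for 6 of the 8 members. Capitals mark a match, on either strand, to 1 of 3 motifs that do not overlap here. The motif ACCACA is the core of the site that RUNX proteins bind. The TATA box, where the general transcription machinery can bind, was searched as TATAAA. For homeodomain proteins such as MSX and DLX the core TAATTA was searched.
Runx2, chr17:44814628-44814877: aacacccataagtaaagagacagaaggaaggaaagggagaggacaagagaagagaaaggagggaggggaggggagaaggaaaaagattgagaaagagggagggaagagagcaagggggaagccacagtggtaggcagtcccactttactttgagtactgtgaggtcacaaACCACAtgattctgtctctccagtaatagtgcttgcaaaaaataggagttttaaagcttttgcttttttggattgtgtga
Runx1 upstream start, chr16:92826075-92826324: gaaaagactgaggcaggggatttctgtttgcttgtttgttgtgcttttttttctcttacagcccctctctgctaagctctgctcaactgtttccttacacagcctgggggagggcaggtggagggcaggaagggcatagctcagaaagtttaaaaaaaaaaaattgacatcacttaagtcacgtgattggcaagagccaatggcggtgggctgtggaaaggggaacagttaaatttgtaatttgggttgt
Runx1 downstream start, chr16:92697330-92697579: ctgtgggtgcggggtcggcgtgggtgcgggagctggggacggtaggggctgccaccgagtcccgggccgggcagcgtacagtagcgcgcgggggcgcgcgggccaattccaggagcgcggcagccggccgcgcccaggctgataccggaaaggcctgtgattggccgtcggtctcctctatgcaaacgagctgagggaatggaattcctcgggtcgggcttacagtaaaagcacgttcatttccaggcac
Msx1, chr5:37824586-37824835: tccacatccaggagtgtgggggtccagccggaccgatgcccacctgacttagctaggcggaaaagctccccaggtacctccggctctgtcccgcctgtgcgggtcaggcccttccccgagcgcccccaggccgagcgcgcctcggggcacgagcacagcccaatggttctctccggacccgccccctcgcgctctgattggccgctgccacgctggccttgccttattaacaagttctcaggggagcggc
Twist1, chr12:33957421-33957670: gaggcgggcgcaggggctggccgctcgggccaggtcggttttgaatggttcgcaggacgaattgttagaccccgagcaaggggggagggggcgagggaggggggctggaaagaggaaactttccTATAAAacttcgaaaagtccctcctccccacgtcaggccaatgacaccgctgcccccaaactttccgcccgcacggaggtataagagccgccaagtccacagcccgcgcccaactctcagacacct
The Runx2 window held 1 ACCACA at position −80, counted back from the start, a motif found in 14% of 32851 windows of this length. TATAAA was found in the Twist1 window at −126 and in 12.4% of all windows. TAATTA, found in 4.84% of all windows, was in none of the 5 shown. The Msx2 window, which is not shown, held 1 at −187. GC content was 44.8% in the Runx2 window, 45.6% and 67.6% in the upstream and downstream windows of Runx1, 68.0% in that of Msx1 and 62.4% in that of Twist1. The deposited counts are per gene, so they do not show which Runx1 or Runx2 start was used.

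Per length, the members spanned the range from a well expressed gene to no detection. Twist1 had the highest deposited FPKM, fragments scaled by gene length and library size,, 28.2 ± 2.77 in control and 35.1 ± 1.85 in knockdown libraries (SD, n = 3 each), above 92.9% of genes in the FPKM table by its mean over the 6 libraries. Runx1 followed at 4.52 ± 0.968 and 4.61 ± 0.0889 FPKM, then Runx2 at 2.57 ± 0.535 and 3.07 ± 0.126. Msx1 had 0.653 ± 0.0814 and 1.65 ± 0.15 FPKM, and Twist2 0.467 ± 0.0839 and 0.55 ± 0.115. In each of the 6 libraries these 5 genes stood in this order, and within each group no neighbours in it overlapped in FPKM. Msx2 (0.0433 ± 0.0153 and 0.137 ± 0.0603 FPKM), Dlx5 (0.01 ± 0.0173 and 0.0233 ± 0.0321) and Sp7 (0 in every control library, 0.00333 ± 0.00577 in the knockdown) lay below, and Msx2 and Dlx5 had the same rounded FPKM of 0.03 in control replicate 2. FPKM rests on the gene length the authors used. Counts and FPKM together give a length of 1.67 kb for Twist1, 9.08 kb for Runx2 and 12.3 kb for Runx1.

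**Figure D1:**
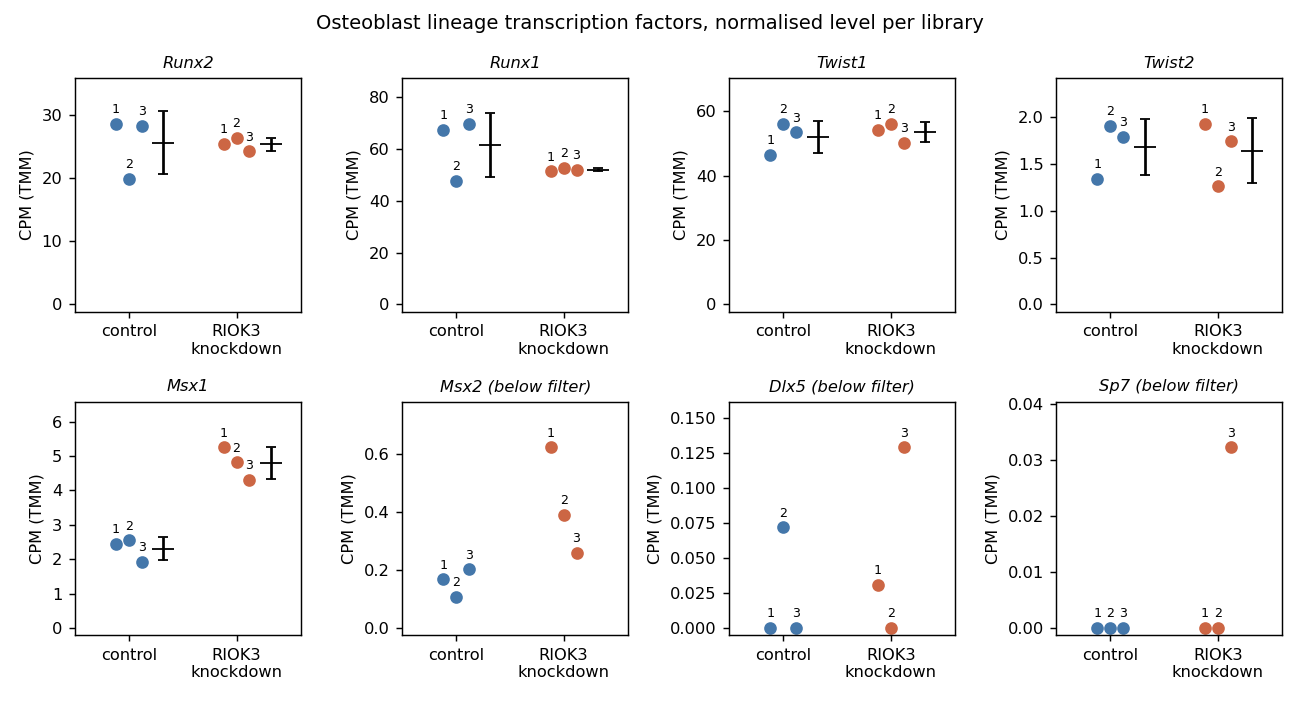
TMM-normalised CPM (y axis, linear, separate scale per gene) of the 8 factors in control (blue) and RIOK3 knockdown (orange) libraries, numbered by replicate, with mean ± SD (n = 3) beside the points for the 5 genes past the filter. Msx1 and Msx2 show groups that do not overlap, which is also so for 62.1% of all tested genes. Control replicate 2 is the lowest library for Runx2 and Runx1.

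Of the 5 tested factors, 1 rose and none fell in the knockdown, where 48.0% of all tested genes were called (21.1% rose and 26.8% fell). The median log2 fold change of the 5 was −0.02 (0.07 without control replicate 2 and −0.29 with the GC trend removed). Over all tested genes the median was 0.0141, and 0.0284 and 0.0294 in those alternatives. By an unadjusted p under 0.05, met by 55.5% of all tested genes, Msx1 was also the only one of the 5. DESeq2, which called 52.4% of all genes, called Msx1 alone among them. Without control replicate 2, 1 rose and 1, Runx1, fell, where 71.6% of all genes tested were called (35.1% rose and 36.5% fell). With the trend on GC content removed none rose and 2, Twist1 and Runx2, fell, where 31.6% of all genes tested were called (16.3% rose and 15.2% fell). In bulk RNA, fewer cells of a type and less RNA per cell cannot be told apart.

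Msx1 (ENSMUSG00000048450.11, chromosome 5), a homeobox gene expressed in craniofacial and limb mesenchyme and associated with an undifferentiated, proliferative state, had raw counts of 73, 71 and 57 in the controls and of 169, 160 and 134 in the knockdown. Scaled to CPM, the control libraries stood at 2.45, 2.55 and 1.92, and those of the knockdown at 5.25, 4.81 and 4.31. Every knockdown library was above every control library, which was also so for 30.8% of all tested genes, while 62.1% did not overlap in either direction. The level rose from 2.31 ± 0.339 to 4.79 ± 0.469 CPM (SD, n = 3 each), 2.08-fold (log2 fold change 1.05, SE 0.191, edgeR adjusted p = 0.00376). The 6 fits that left out 1 library gave log2 fold changes of 0.94 to 1.13, all past the threshold. Its transcript has a GC content of 58.2%, and with the trend on GC content removed its log2 fold change was 0.45 and did not pass (adjusted p = 0.105). With that trend removed and control replicate 2 left out it was 0.51 and passed (adjusted p = 0.0316).

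Msx2 (ENSMUSG00000021469.10, chromosome 13), a paralog of Msx1 and a BMP target in skull and tooth development, was scarce. Its raw counts were 5, 3 and 6 in the controls and 20, 13 and 8 in the knockdown. Every knockdown library held more than any control library, which was also so in CPM for 30.8% of all tested genes. Too few libraries reached the count minimum for a test of Msx2. Summed over libraries, it had 14 counts in control (95% Poisson interval 7.65 to 23.5) and 41 in the knockdown (29.4 to 55.6), or 0.147 and 0.463 CPM of the pooled libraries, intervals that cover counting error only. Tested without the filter, its log2 fold change was 1.40 (SE 0.59, edgeR adjusted p = 0.101), which did not pass. In that fit 28.5% of 22030 genes were called. There were 14.6, 23.7 and 9.5 counts of Msx1 for each count of Msx2 among controls, against 8.45, 12.3 and 16.8 under knockdown, ranges that overlapped.

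Dlx5 (ENSMUSG00000029755.11, chromosome 6), a distal-less homeobox gene that acts upstream of Runx2 and Sp7, was treated as not expressed. Its raw counts were 0, 2 and 0 in the controls, against 1, 0 and 4 in the knockdown. The sums of 2 and 5 counts have 95% Poisson intervals of 0.242 to 7.22 and 1.62 to 11.7, so no difference was detectable at this depth. Sp7 (ENSMUSG00000060284.8, chromosome 15) was likewise treated as not expressed, with 1 count in knockdown replicate 3 and 0 in the other 5 libraries. For the control sum of 0 the two-sided 95% Poisson interval ends at 3.69 counts, and the floor of 3 counts, a one-sided limit, equals 0.0315 CPM of the pooled libraries.

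Among other distal-less genes, Dlx2 was higher in the knockdown, from 3.80 ± 0.756 to 6.88 ± 1.05 CPM (log2 fold change 0.86, adjusted p = 0.0137). The other tested Dlx genes went in opposite directions and did not pass. Dlx1 was at 0.835 ± 0.125 and 0.475 ± 0.0616 CPM (−0.807, edgeR adjusted p = 0.0532). Dlx4 was at 0.209 ± 0.134 and 0.55 ± 0.144 CPM (1.39, adjusted p = 0.0551). Prrx2, a paired-related homeobox gene of limb and skull mesenchyme, rose from 2.65 ± 0.41 to 7.61 ± 0.785 CPM (log2 fold change 1.52, adjusted p = 0.000685). Its paralog Prrx1, which marks marrow stromal progenitors, was at 93.4 ± 16.9 and 45.5 ± 1.77 CPM (log2 fold change −1.04, adjusted p = 0.00203), and Shox2, a limb homeobox gene, at 79.2 ± 25.7 and 28.1 ± 0.959 CPM (−1.49, adjusted p = 0.00255). With the GC trend removed Prrx1 was called in the opposite direction (0.48, adjusted p = 0.015) and Dlx2 was not called (0.25), while Prrx2 (0.80) and Shox2 (−1.44) passed in the same direction. Dlx1 was then called lower (−1.21, edgeR adjusted p = 0.0169), and Dlx4 was not called (0.827, adjusted p = 0.245). Of the 12 tested genes in the list of Dlx, Msx and other homeobox genes, 3 rose and 2 fell (5 and 3 without control replicate 2, 5 and 2 with the GC trend removed), with a median log2 fold change of 0.40 (0.26 and 0.64 in those 2 alternatives, which are given in this order for each list below). The shares of all tested genes to set beside this list and those below were 21.1% higher and 26.8% lower. In those 2 alternatives they were 35.1% and 36.5%, and 16.3% and 15.2%.

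Runx2 (ENSMUSG00000039153.18, chromosome 17) had raw counts of 855, 553 and 844 in the controls, against 819, 880 and 754 in the knockdown. The corresponding CPM were 28.7, 19.9 and 28.4, and 25.5, 26.4 and 24.3. The groups overlapped, with control replicate 2 lowest and the other controls highest of the 6 libraries. The log2 fold change of −0.02 had a 95% interval of −0.42 to 0.39, so this fit did not exclude changes within that range in either direction. Without control replicate 2 it was −0.17 (adjusted p = 0.0764).

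What the GC correction gave for Runx2 depended on the transcript taken to represent it, among 13 annotated ones. With the transcript of the longest coding part, 1790 bases long (rounded) and 56.8% GC, Runx2 was called lower at −0.56 (adjusted p = 0.0469). With the longest transcript, of 6460 bases and 50.3% GC, a setting chosen after the data were seen, it was at −0.10 (adjusted p = 0.625). With the mean GC content of all its transcripts, 53.5%, it was at −0.33 (adjusted p = 0.158). With the first transcript again, Runx2 did not pass when length was removed as well (−0.53, adjusted p = 0.0793), and passed without control replicate 2 (−0.72, adjusted p = 1.76e-07). The length of 9.08 kb implied by the FPKM is above that of every annotated transcript used here.

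Runx1 (ENSMUSG00000022952.18, chromosome 16) had raw counts of 2004, 1319 and 2067 in the controls, against 1648, 1751 and 1613 in the knockdown. In CPM the controls were at 67.3, 47.4 and 69.6 and the knockdown libraries at 51.2, 52.6 and 51.9. As for Runx2, control replicate 2 was below all 3 knockdown libraries and the other controls were above them. The log2 fold change was −0.24 (95% interval −0.64 to 0.16, edgeR adjusted p = 0.271). Without control replicate 2 Runx1 was called lower, at −0.40 (adjusted p = 4.95e-05), and with library totals alone in place of TMM it was at 0.0021. With the GC trend removed it was at 0.32 (adjusted p = 0.0888), and with length removed as well it was called higher, at 0.40 (adjusted p = 0.0159). Without control replicate 2, the GC-corrected fit also called Runx1 higher, at 0.24 (adjusted p = 0.00263), opposite to the uncorrected call. The GC content taken for Runx1 was 46.4%, that of 1 transcript. With the mean over its 7 transcripts, 50.7%, it was at −0.26 and did not pass (adjusted p = 0.186). The direction for Runx1 thus differed between settings.

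The counts of Runx2 for each count of Runx1 within a library do not depend on how libraries are scaled. This ratio was 0.427, 0.419 and 0.408 among controls, so control replicate 2 did not stand apart in it. Under knockdown it was 0.497, 0.503 and 0.467, above all controls. The log2 ratio was −1.26 ± 0.0319 in control and −1.03 ± 0.0562 in the knockdown (SD, n = 3 each), a difference of 0.23 that gave p = 0.1 in an exact two-sided permutation test, the smallest p that 3 against 3 allows (0.2 adjusted over 2 pairs). The ratio of Twist1 to Twist2 was 34.6, 29.5 and 29.9 among controls, against 28.1, 44.5 and 28.9 under knockdown, and the groups overlapped (exact p = 1, adjusted 1). The transcripts of Runx2 and Runx1 differ in GC content, and from the GC-corrected fits the Runx2 to Runx1 difference had the opposite sign, at −0.88, or −0.31 with the longest transcript and −0.06 with the mean of all transcripts. The longest run of identical bases between any transcripts of the pair was 26 bases for Runx2 and Runx1, 22 for Msx1 and Msx2 and 23 for Twist1 and Twist2. Whether reads were shared between paralogs was not tested.

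**Figure D2:**
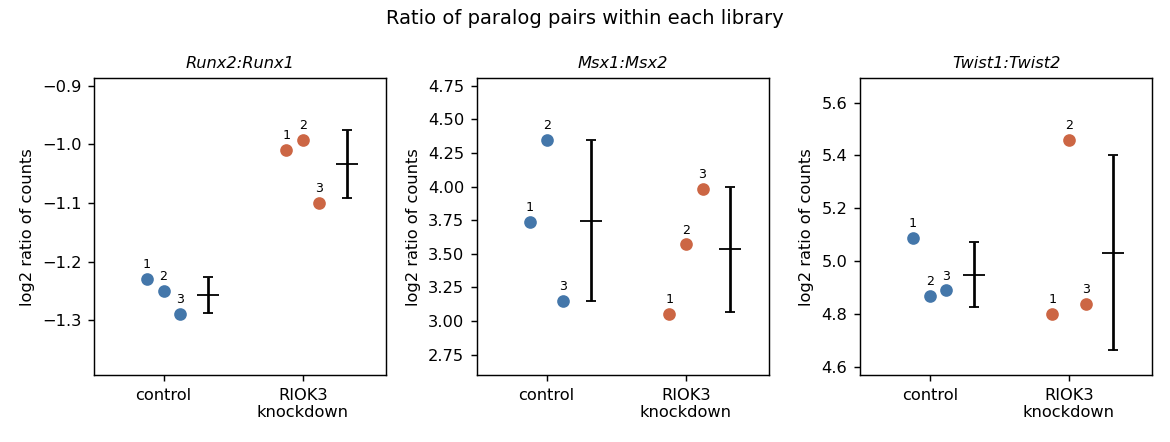
Log2 ratio of raw counts (plus 0.5) of 3 paralog pairs within each library (y axis, own scale per pair, not starting at 0), control in blue and RIOK3 knockdown in orange, points numbered by replicate, bars mean ± SD (n = 3). The Runx2 to Runx1 ratio of the knockdown libraries lies above that of all controls, while the other pairs overlap.

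Antisense genes overlap exons of some members, and the sources used here do not name the strand setting of the counting. Runx2os1, antisense to Runx2, had raw counts of 6, 18 and 22 among controls, against 22, 31 and 18 under knockdown, few beside the 553 to 880 counts of Runx2. Gm26626, antisense to Runx1, had at most 3 counts in any library.

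Twist1 (ENSMUSG00000035799.7, chromosome 12) had raw counts of 1383, 1561 and 1585 in the controls, against 1742, 1867 and 1560 in the knockdown. The CPM were 46.4, 56.1 and 53.4 among controls, against 54.1, 56.1 and 50.2 under knockdown. The groups overlapped, with control replicate 1 lowest. The log2 fold change was 0.04 (95% interval −0.26 to 0.35, edgeR adjusted p = 0.813), and 0.10 without control replicate 2 (adjusted p = 0.27). Twist1 has a single annotated transcript, of 1630 bases (rounded) and 59.3% GC. With the GC trend removed Twist1 was called lower in all 6 such fits, between −0.62 and −0.52, and at −0.60 (adjusted p = 0.00703) in the first of them. Thus the same counts gave a value near 0 relative to all genes and a lower value relative to genes of like GC content.

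Twist2 (ENSMUSG00000007805.5, chromosome 1), also known as Dermo1, had raw counts of 40, 53 and 53 in the controls, against 62, 42 and 54 in the knockdown. In CPM the controls were at 1.34, 1.91 and 1.79 and the knockdown libraries at 1.93, 1.26 and 1.74. The groups overlapped throughout, with the lowest and the highest library both in the knockdown. The log2 fold change was −0.03 (95% interval −0.64 to 0.58, edgeR adjusted p = 0.931), the widest interval of the 5 factors. With the GC trend removed it was at −0.29 (adjusted p = 0.431) and did not pass, and the 6 such fits gave −0.45 to −0.16. Gm29100, an antisense gene that overlaps 1477 bases of Twist2 exons, had no row under that symbol in the deposited counts. Reads from it in the Twist2 counts therefore cannot be bounded.

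**Figure D3:**
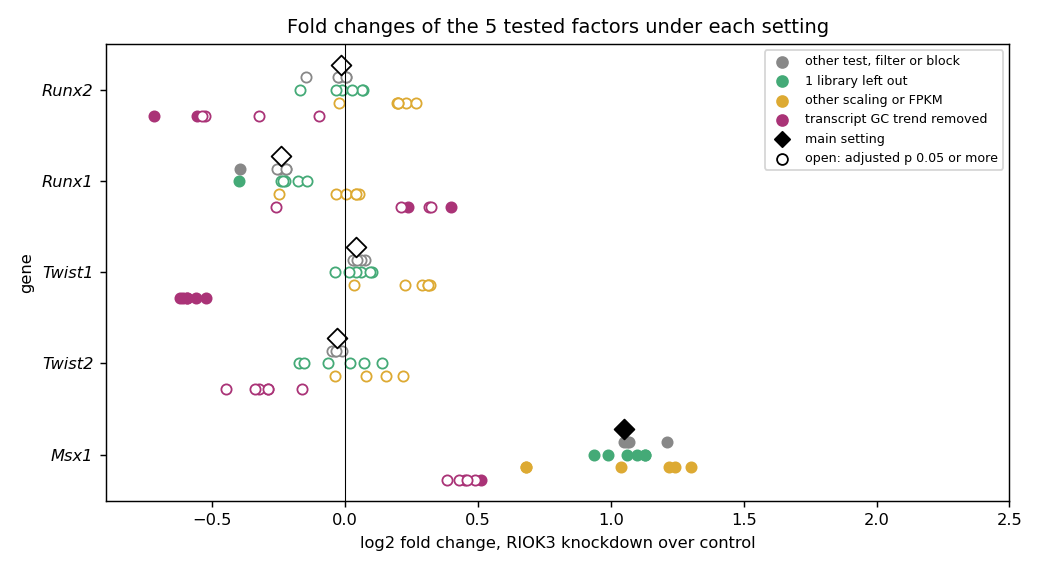
Log2 fold changes of the 5 tested factors (x axis, RIOK3 knockdown over control) under the main setting (black diamonds) and each alternative (circles coloured by kind), filled where the adjusted p was under 0.05. Msx1 is above 0 under every setting, and Twist1 lies below 0 in all fits with the transcript GC trend removed.

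Partners and modifiers of RUNX proteins held calls in both directions, as did all tested genes (21.1% higher and 26.8% lower). Of 25 tested, 4 rose and 4 fell (8 and 10 without control replicate 2, 2 and 4 with the GC trend removed), and the median log2 fold change was 0.05 (−0.01 and −0.05). Rbbp6, a ubiquitin ligase gene whose product binds p53 and RB, went from 603 ± 136 to 99.6 ± 7.62 CPM (log2 fold change −2.60 with adjusted p = 0.000106). It is on the list, but no direct link of its product to RUNX proteins is shown here. Wwp1, whose ubiquitin ligase promotes degradation of RUNX2, went from 34.1 ± 7.53 to 8.02 ± 1.06 CPM (−2.09, adjusted p = 0.000323), but after GC correction it was at 0.02 and did not pass. The corepressor gene Runx1t1 was at −1.69 and the kinase gene Hipk2 at −1.81, both past the threshold with and without that correction, which put Runx1t1 at −0.73 and Hipk2 at −2.13. Rbbp6 passed with it too, at −1.99.

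Of 11 tested Twist partners, Id proteins and Snai and Zeb repressors, which act with Twist proteins in mesenchyme, 4 rose and 4 fell (4 and 5 without control replicate 2, 1 and 3 with the GC trend removed), with a median of −0.43 (−0.15 and −0.10). Snai2, the mesenchymal repressor Slug, went from 85.5 ± 21.5 to 23.0 ± 1.2 CPM (log2 fold change −1.90, adjusted p = 0.000431). Tcf4, an E protein that dimerises with Twist proteins, went from 42.8 ± 6.83 to 15.2 ± 1.31 CPM (−1.50, adjusted p = 0.000453). Zeb2 was at −2.69 and the tendon factor Scx at 1.24, and all 4 also passed in the same direction after GC correction. Their corrected values were −0.50 for Snai2, −1.25 for Tcf4, −1.59 for Zeb2 and 0.52 for Scx.

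Of 38 other transcription factors of osteoblasts tested, 9 rose and 9 fell (11 and 16 without control replicate 2, 10 and 10 with the GC trend removed), with a median of −0.01 (−0.03 and −0.09). The first pair of counts lay near the shares of all tested genes, 21.1% higher and 26.8% lower. Sp3, a zinc finger factor of the same family as Sp7, went from 51.8 ± 18.0 to 4.19 ± 0.589 CPM (log2 fold change −3.63, adjusted p = 0.000164). The glucocorticoid receptor gene Nr3c1 was at −2.07, the orphan receptor gene Nr4a1 at 1.07 and the Wnt effector gene Lef1 at 0.97, all past the threshold with and without the GC correction. The corrected values were −1.59 for Sp3, −1.59 for Nr3c1, 0.52 for Nr4a1 and 0.83 for Lef1.

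Bone genes that RUNX2 or SP7 are known to control were mostly below the filter: 12 of 27 in the table were tested, 5 rose and 4 fell (7 and 5 without control replicate 2, 4 and 5 with the GC trend removed), and the median was 0.42 (0.25 and −0.12). Phex, an endopeptidase gene of phosphate balance, went from 3.56 ± 1.24 to 0.215 ± 0.104 CPM (log2 fold change −4.01, adjusted p = 0.000478), Cdh11, osteoblast cadherin, from 29.2 ± 8.23 to 8.10 ± 1.0 CPM (−1.85, adjusted p = 0.00101). Spp1, osteopontin, was at −1.95 and Col1a1, the main collagen of bone, at 1.39, and these 4 passed in the same direction with the GC trend removed. Their values were then −1.90 for Phex, −0.998 for Cdh11, −0.999 for Spp1 and 0.76 for Col1a1. Like Sp7, the osteoblast markers Ibsp and Bglap had at most 1 and 2 counts in any library. Others on the list were well above that, with up to 177 counts for Alpl and 12950 for Sparc. Alpl was at 1.31 (edgeR adjusted p = 0.00581) and Sparc at 0.647 (adjusted p = 0.00291). With the GC trend removed Alpl passed at 0.794 (adjusted p = 0.0455), while Sparc did not, at 0.214.

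Among BMP, FGF and Wnt genes that act upstream of these factors, 5 of 17 tested rose and 6 fell (7 and 7 without control replicate 2, 4 and 3 with the GC trend removed), with a median of 0.205 (−0.03 and 0.345). The BMP antagonist gene Grem1 went from 83.6 ± 25.2 to 6.62 ± 1.04 CPM (log2 fold change −3.66, adjusted p = 0.000101). Bmp4, a ligand that induces Msx genes, went from 4.52 ± 0.88 to 0.872 ± 0.122 CPM (−2.37, adjusted p = 0.000295). Smad6, an inhibitor of BMP signalling that BMPs induce, went from 2.62 ± 0.455 to 9.13 ± 1.59 CPM (1.80, adjusted p = 0.000623). The receptor gene Bmpr1a fell, at −1.44 (adjusted p = 0.000829), but after GC correction was at 0.26 without passing, while the other 3 passed in the same direction (−2.76 for Grem1, −2.62 for Bmp4 and 1.12 for Smad6).

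**Figure D4:**
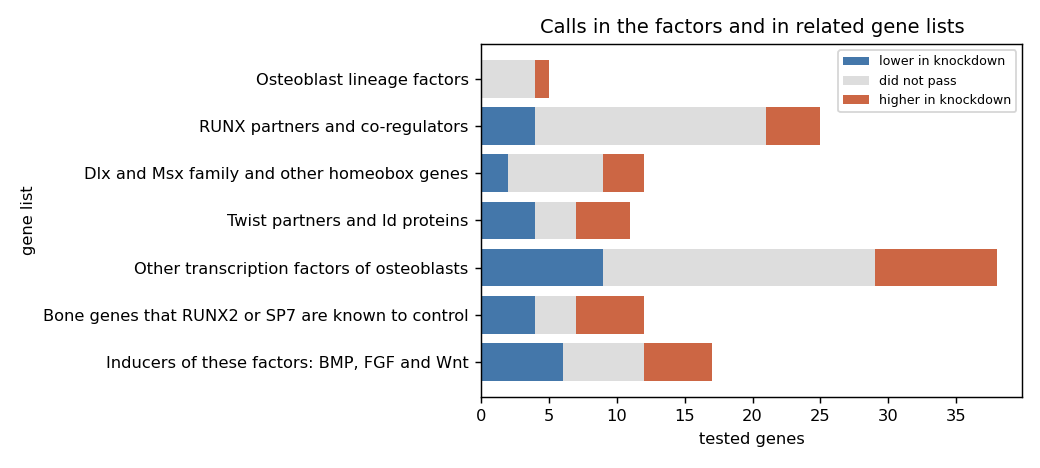
Number of tested genes (x axis) lower (blue), not called (grey) and higher (orange) in the RIOK3 knockdown at an edgeR adjusted p under 0.05, for the osteoblast lineage factors and 6 related lists. Of the 5 lineage factors 1 is called, and each related list holds calls in both directions. Of all tested genes 48.0% are called, 21.1% as higher and 26.8% as lower.

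Over the 6 libraries, the listed genes of at least 10 CPM whose log2 CPM was most like that of each member were taken as a description, from 92 or 93 candidates that share depth and the GC trends of the libraries. The correlations ran across both groups, so they also carry the difference between control and knockdown. For Runx1 they were Cbfb (Pearson r = 0.987), the gene of its partner subunit, and Ets1 (0.983), and for Runx2 they were Maf (0.965) and Xbp1 (0.962). Cbfb was at 82.0, 31.8 and 78.2 CPM among controls, against 43.5, 41.6 and 42.3 CPM under knockdown, so it too was lowest in control replicate 2. Its log2 fold change was −0.591 and did not pass (edgeR adjusted p = 0.181). With the GC trend removed Cbfb was called higher, at 0.879 (adjusted p = 0.0383). For Msx1 they were Fzd2 (0.987), a Wnt receptor gene, and Col1a1 (0.974), both called higher in the knockdown like Msx1 (log2 fold changes 1.31 and 1.39). For Twist1 they were Cdk9 (0.921) and Cebpb (0.807), and for Twist2 Pparg (0.619) and Wwtr1 (0.458).

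Markers of marrow stromal cells and of other lineages were read beside the factors. Of 16 tested stromal markers 3 rose and 9 fell (3 and 5 after GC correction), and the summed level of the 17 listed was 2910 to 4060 CPM in control and 1970 to 2270 CPM in knockdown libraries. Most of that sum was Vim alone, at 1980, 3290 and 2190 CPM in control and 1460, 1420 and 1700 CPM in knockdown libraries. The stromal markers Lepr and Thy1 were low, with at most 13 and 36 counts in a library. Of the blood and macrophage markers, relevant to Runx1, 16 of 26 were in the table and 5 were tested, of which 1 rose and 2 fell (0 and 3 after GC correction). Their summed level was 71.0 to 102 CPM in control and 94.7 to 99.3 CPM in the knockdown, and nearly all of it came from Cd68, Cd34, Itgb2 and Gata2. These had up to 1583, 977, 514 and 696 counts in a library, and Cd14 up to 36. The other 11, among them Ptprc, Tyrobp and Itgam, had at most 22. Summed endothelial markers (1 of 5 tested rose, none fell) were at 11.3 to 13.6 and 17.3 to 19.9 CPM, adipocyte markers (2 of 5 rose, 2 fell) at 121 to 129 and 76.2 to 81.5 CPM, and chondrocyte markers (1 of 4 rose, 3 fell) at 27.6 to 40.8 and 26.9 to 29.6 CPM. In control libraries most of the adipocyte sum was Lpl, at 93.4 ± 7.06 CPM, against 34.8 ± 0.952 CPM in the knockdown. Its log2 fold change of −1.42 became −0.275 with the GC trend removed, which did not pass (edgeR adjusted p = 0.129). In the endothelial, adipocyte and chondrocyte lists alike, some markers were scarce and others not. Pecam1 had at most 14 counts in a library and Kdr up to 246, Plin1 at most 1 and Lpl up to 3024, and Col2a1 at most 19 and Sox9 up to 822. After GC correction none of the endothelial markers passed, 3 adipocyte markers rose and none fell, and 2 chondrocyte markers fell and none rose. The part of these shifts in the levels of the factors was not tested.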

How the data were processed

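Messenger RNA of 6 libraries (3 control, 3 RIOK3 knockdown, grouped by title) was analysed. HISAT2, MultiQC and GRCm39 are named, with no version or role, per the submitters' processing notes. The sources used here do not name the counting tool. Raw counts per gene for 22030 genes, not normalised, and FPKM values for 21879 genes are as the authors deposited them. FPKM served to compare levels between genes and for alternatives.

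The test of the counts was that of edgeR 4.0.16 (R 4.3.3): filterByExpr (minimum count 10), TMM factors, glmQLFit with robust estimation and glmQLFTest, two-sided, with Benjamini-Hochberg adjustment over 13067 genes and a threshold of 0.05. The SE is the size of the log2 fold change over the square root of F. Log2 CPM used a prior count of 2. The GC correction entered each library's loess trend (span 0.3) of log2 CPM on transcript GC content, from GENCODE M21 on GRCm38 for 13043 of the tested genes, as an offset. GRCm38 coordinates served only for the promoter windows of RefSeq, and for the exon overlaps and coding lengths from GENCODE M21.

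The members and lists were chosen with earlier results of these data known. The text names the 8 members, Riok3, up to 4 tested genes of smallest p from each list described, and for each tested member the 2 listed genes most correlated with it. Single markers of other cell types, Dlx1, Dlx4, Lepr, Thy1, Vim, Ibsp, Bglap, Alpl, Sparc and the antisense genes were named after their values were seen. DESeq2 1.42.0, limma 3.58.1, other factors, other filters, FPKM, a block, left-out libraries and GC offsets were the alternatives.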

Additional observations from a re-analysis of the deposited data

How the results depend on the processing

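Under 23 alternatives, most changes came from the transcript GC trend and from control replicate 2. Genes called numbered 6266, 9475 with limma-voom and quality weights, 9592 without control replicate 2 (4340 to 9592 leaving out each library), 4118 with the GC trend removed, 4163 with the mean GC content of all transcripts, and 3102 with the GC trend and a replicate block. Of the tested factors 1 was called, 2 with limma-voom, without control replicate 2, with the GC trend and with GC and length removed, 4 with the GC trend removed and control replicate 2 left out, 1 to 2 leaving out each library, and 0 with a filter of 5 CPM in 3 libraries, which left out Msx1 and Twist2. The fit that called 4 factors called 8227 of 13372 genes tested. Limma-voom called 9475 of 13067, the removal of GC and length 5164 of 13043, and the filter of 5 CPM 4951 of 9372. Runx2 changed sign with upper-quartile factors (0.194), library totals (0.229), no filter (0.00271), a replicate block (0.00208) and log2 FPKM (0.2, 0.268 with a pseudocount of 0.1, 0.2 without filter), ranged from −0.169 to 0.0681 leaving out each library, and passed with the GC trend removed (−0.559; −0.719 without control replicate 2) but not with length (−0.528) or the block (−0.538) added. Runx1 passed as lower with limma-voom (−0.397) and without control replicate 2 (−0.398 to −0.142 leaving out each library), and changed sign with library totals (0.00209), log2 FPKM (0.0391, 0.0508, 0.0391) and the GC trend removed (0.317, 0.399 with length, 0.211 with the longest transcript, 0.237 without control replicate 2, 0.323 with the replicate block) but not with mean GC content (−0.26). Msx1 (0.937 to 1.13 leaving out each library) did not pass with the GC trend removed (0.45), with length (0.489), mean GC content (0.384), the longest transcript (0.427) or the block (0.458). Twist1 (−0.0375 to 0.101) turned negative with the GC trend removed (−0.595), with length (−0.523), mean GC content (−0.609), the longest transcript (−0.622), the block (−0.594) and without control replicate 2 (−0.56). Twist2 (−0.172 to 0.138) turned positive with upper-quartile factors (0.154), library totals (0.218) and unfiltered log2 FPKM (0.0786). The Runx2 to Runx1 difference (0.205 to 0.258 leaving out each library) was −0.877, −0.0642 and −0.31 with the GC trend removed by the coding transcript, mean GC content and the longest transcript, and that of Twist1 to Twist2 (−0.13 to 0.198) was −0.306, −0.163 and −0.284. The longest-transcript fits and the GC-corrected ratios were chosen after seeing the data. Same-numbered libraries deviated from their group means with correlations of −0.076, 0.0444 and 0.0522, control replicate 1 correlated best with knockdown replicate 3 (0.12), and the replicate block called 5615 genes and 1 factor. The cause of these changes was not tested. Depth limits Msx2, Dlx5 and Sp7.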
